A study of Mus musculus with 6 samples.

Results

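The 38 protein-coding genes described here drive or restrain the cell cycle, and they were chosen as a list of named genes. All 38 were found among the 21644 protein-coding genes of the GENCODE vM21 annotation on the 19 autosomes and X. Their H3K27ac, the acetylation of histone H3 at lysine 27 that marks active promoters and enhancers, was read in alveolar macrophages (AMs), the phagocytes that live in the air spaces of the lung. The cells were sorted from the bronchoalveolar lavage of WT C57BL/6J mice, 9 weeks old, and all 3 H3K27ac libraries came from this 1 genotype and condition, with no treatment named. HT-ChIPmentation, in which the transposase Tn5 adds sequencing adapters to chromatin bound on beads, gave 1 library with an Active Motif antibody (titled H3 in the labels) and 2 replicate libraries with a Cell Signaling antibody, called replicate 1 and replicate 2 below. The series also held 3 inputs, which entered through the authors' peak calling. Antibody and library went together. Nothing in the labels says whether the replicates were taken from different mice, and the spread between them may therefore be technical. With 1 condition and peak lists in place of read counts there was no contrast to test, and the members are described beside all protein-coding genes.

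The mammalian cell cycle is entered when D-type cyclins activate CDK4 and CDK6, which phosphorylate RB and free E2F factors to switch on the genes of DNA synthesis. Cyclin E with CDK2 then fires origins that CDC6 and the MCM helicase have licensed, and cyclins A and B with CDK1 drive mitosis, while CDK inhibitors hold these kinases back. AMs are long-lived cells that maintain themselves by a low rate of division in the lung, so that most of them are not dividing at any time. The 38 genes were sorted by role into 8 groups: D-type cyclins and their kinases (Ccnd1, Ccnd2, Ccnd3, Cdk4, Cdk6), CDK inhibitors (Cdkn1a, Cdkn1b, Cdkn2c), RB and E2F factors (Rb1, E2f1, E2f2, E2f3), cyclin E and CDK2 (Ccne1, Ccne2, Cdk2), origin licensing and the MCM helicase (Cdc6, Mcm2 to Mcm7), the replication fork and nucleotide supply (Pcna, Rrm1, Rrm2, Tyms), cyclins A and B and CDK1 (Ccna2, Ccnb1, Ccnb2, Cdk1), and mitotic kinases and chromosome segregation (Aurka, Aurkb, Plk1, Bub1, Cdc20, Birc5, Top2a, Mki67).

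Promoters of many of these genes carry known elements: E2F sites, read by E2F factors and RB family complexes, and the cell cycle genes homology region (CHR) with CCAAT boxes, read by the DREAM complex and by NF-Y. RefSeq promoter sequence (GRCm38.p6, from 250 bases before to 50 after the start) was matched to 31 of the 38 members. 5 windows are shown, chosen after their values were seen: Ccnb2, for its row of CCAAT boxes, Cdc20 and Cdk1, mitotic genes without an Active Motif promoter peak, Mcm6, an E2F-rich licensing gene also without one, and Cdkn1b, among the most strongly acetylated members. They are printed 5′ to 3′ on the coding strand up to 30 bases after the start, with capitals for E2F, CHR and CCAAT matches on either strand. Their RefSeq starts lay 0 to 41 bp from the GENCODE 5′ ends. The windows are chr9:70421525-70421804 (minus strand) for Ccnb2, chr4:118437314-118437593 (minus) for Cdc20, chr10:69352883-69353162 (minus) for Cdk1, chr1:128359676-128359955 (minus) for Mcm6 and chr6:134920151-134920430 (plus) for Cdkn1b.
Ccnb2: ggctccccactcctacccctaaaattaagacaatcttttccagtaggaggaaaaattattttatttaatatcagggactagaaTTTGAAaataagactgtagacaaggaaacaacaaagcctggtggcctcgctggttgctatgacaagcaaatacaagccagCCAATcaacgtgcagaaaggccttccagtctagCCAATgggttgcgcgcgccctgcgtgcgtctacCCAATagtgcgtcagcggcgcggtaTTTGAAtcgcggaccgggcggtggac
Cdc20: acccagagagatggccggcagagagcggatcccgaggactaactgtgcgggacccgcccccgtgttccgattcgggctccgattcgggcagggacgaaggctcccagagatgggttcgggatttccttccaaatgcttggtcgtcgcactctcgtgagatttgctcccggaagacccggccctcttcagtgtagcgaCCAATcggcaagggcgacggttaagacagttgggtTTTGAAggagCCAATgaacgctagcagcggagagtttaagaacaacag
Cdk1: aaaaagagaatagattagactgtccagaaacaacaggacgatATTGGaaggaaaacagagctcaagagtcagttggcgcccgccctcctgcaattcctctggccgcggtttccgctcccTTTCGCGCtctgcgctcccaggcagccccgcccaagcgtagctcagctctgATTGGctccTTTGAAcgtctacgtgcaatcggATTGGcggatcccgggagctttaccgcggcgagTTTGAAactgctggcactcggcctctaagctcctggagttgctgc
Mcm6: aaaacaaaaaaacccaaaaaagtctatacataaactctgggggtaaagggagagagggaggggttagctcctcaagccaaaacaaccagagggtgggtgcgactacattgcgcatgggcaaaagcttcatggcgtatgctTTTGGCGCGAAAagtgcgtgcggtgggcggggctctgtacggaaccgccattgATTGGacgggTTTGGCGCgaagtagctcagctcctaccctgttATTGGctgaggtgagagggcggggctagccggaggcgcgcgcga
Cdkn1b: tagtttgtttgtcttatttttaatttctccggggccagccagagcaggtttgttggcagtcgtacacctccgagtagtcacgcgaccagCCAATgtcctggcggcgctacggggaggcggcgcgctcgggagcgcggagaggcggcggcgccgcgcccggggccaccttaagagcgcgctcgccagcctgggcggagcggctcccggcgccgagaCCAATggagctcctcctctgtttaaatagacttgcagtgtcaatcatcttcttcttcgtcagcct

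In the Ccnb2 window, CCAAT boxes began 87, 54 and 21 bases before the RefSeq start, all in 1 orientation. CHR matches began 167 bases before that start and at base 4 after it. Cdk1 held CCAAT boxes in the reverse orientation 208, 80 and 48 bases before its start. It also had CHR matches at 71 and 15 bases and an E2F match at 131 bases before the start. Spacings of 32 or 33 bases between CCAAT boxes of 1 orientation occurred in 4 of 31 member windows (12.9%; Aurka, Ccnb1, Ccnb2 and Cdk1) and in 0.645% of 16426 protein-coding promoters. That spacing was noticed in these sequences and then counted. The Mcm6 window carried E2F matches that overlap each other at 110 and 106 bases before the start and another at 47 bases, and Cdkn1b held CCAAT boxes at 161 and 35 bases before the start without a CHR or E2F match.

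E2F letters (TTTCCCGC, TTTCGCGC, TTTGCCGC or TTTGGCGC, either strand) were found in 9 of 31 members (29.0%), in 2.96% of all promoters and in 4.63% of those with a shared acetylated region, as defined below. They lay in 5 of 6 licensing genes (Cdc6, Mcm3, Mcm5, Mcm6 and Mcm7). None of the 7 genes with sequence in the group of mitotic kinases and chromosome segregation held them, but Cdk1 did. The CHR (TTTGAA) was found in 9 members (29.0%), against 15.5% of all promoters. Of those 9, 5 were in the group of mitotic kinases and chromosome segregation (Aurka, Cdc20, Mki67, Plk1 and Top2a). Ccnb2 and Cdk1, of the group of cyclins A and B and CDK1, also held it. CCAAT occurred in 21 members (67.7%) and 38.9% of all promoters, and CHR and CCAAT together in 9 members (29.0%) and 6.41% of all promoters. A GC box (GGGCGG) was in 24 members (77.4%) and 48.5% of all promoters, but also in 77.0% of CpG-rich promoters. Matches of different motifs overlapped in 1 member (Mcm7). By base composition 25 of 31 members (80.6%) had a CpG-rich promoter, against 47.9% of all genes. A match is a string of letters in the window and was not tested for binding.

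Nearly all members had an acetylated promoter. A promoter was called when a peak overlapped 1 kb either side of a transcription start site (TSS) of the gene, and a shared region was a stretch of merged Cell Signaling peaks that held a peak of each replicate. Such a region reached the promoter of 37 of the 38 members (97.4%), against 46.4% of all protein-coding genes. Per library, 26 members had a promoter peak in the Active Motif library (68.4%, against 40.9% of all genes), 38 in replicate 1 (47.8% of all genes) and 37 in replicate 2 (48.8% of all genes). All 26 with an Active Motif peak also had one in both replicates, so 26 members were marked in all 3 libraries, against 40.8% of all genes. Since CpG-rich promoters are acetylated more often than others, the shares were also taken by base composition: 25 of 25 CpG-rich member promoters had a shared region, against 75.0% of all CpG-rich promoters and 24.9% of the other promoters with sequence.

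**Figure D1:**
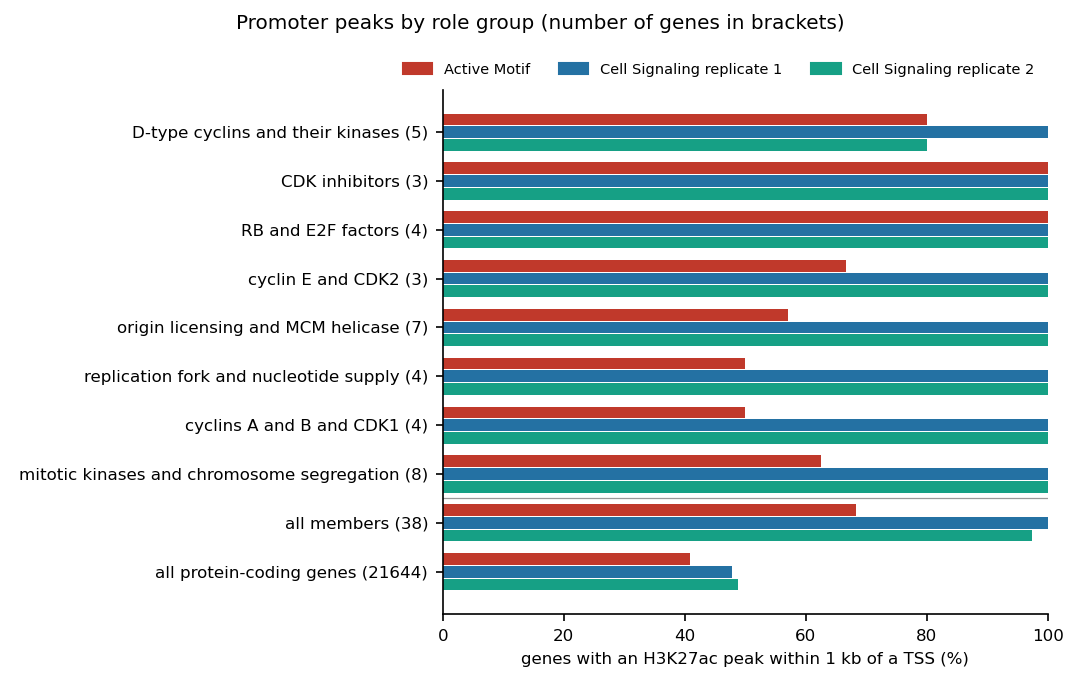
Share of genes (%) with an H3K27ac peak within 1 kb of a TSS, for the 8 role groups, all 38 members and all 21644 protein-coding genes, with 1 bar per library. In replicate 1 every group stood at 100%, while Active Motif peaks were called at 2 of 4 genes for cyclins A and B with CDK1 and at every gene for the CDK inhibitors and for the RB and E2F factors.

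The strength of these promoters was moderate. Strength was the authors' fold enrichment over background at the strongest promoter peak, and because folds of different libraries are not on 1 scale, each gene was also given its percentile among the protein-coding genes with a promoter peak in that library. The median fold over members with a peak was 8.74 for Active Motif, 16.5 in replicate 1 and 25.6 in replicate 2, against 11.1, 19.2 and 26.9 for all genes with a peak. The median percentile was 36.0, 42.7 and 46.7 in the same libraries, and the median of the members' mean over both replicates was 44.2, against 52.3 for all genes with a shared region. Within 5 kb of the TSS the 37 members with a shared region had medians of 735, 1622 and 1968 bases under peaks, against 1143, 1789 and 2089 bases for all genes with one. In every library the median over the members was the lower one. The SD between the replicates' medians over the members was 237 bases, and 2.78 points for the percentile. It describes how the replicates differ and does not measure the precision of the gap between members and all genes. In a bulk population a weak mark in every cell and a strong mark in a few cells cannot be told apart.

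**Figure D2:**
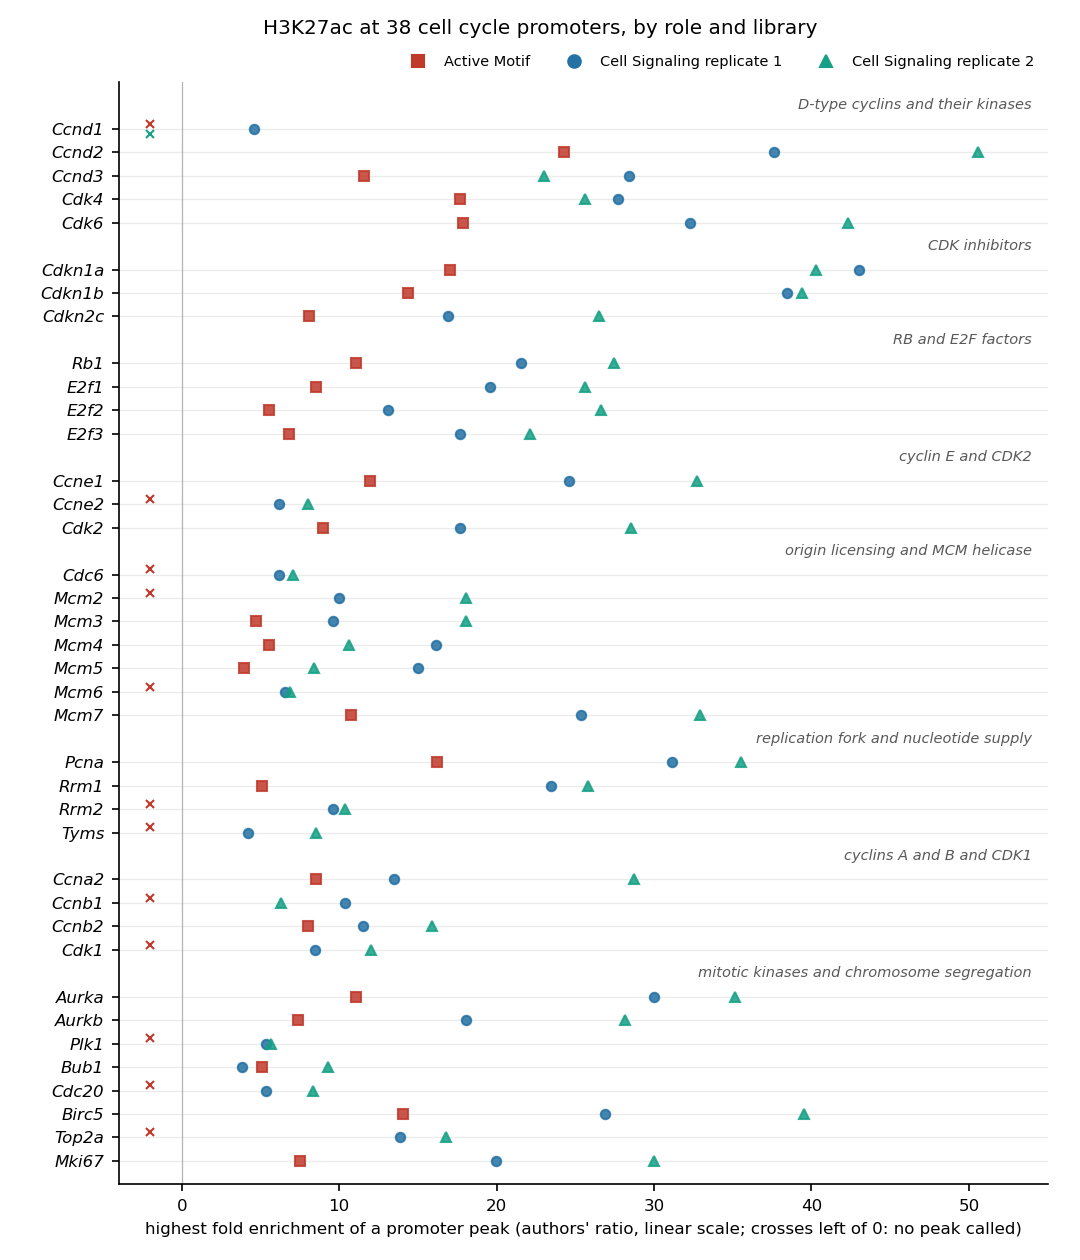
Highest fold enrichment of a promoter peak (horizontal axis, the authors' ratio) for each of the 38 members, grouped by role, with a square for Active Motif, a circle for Cell Signaling replicate 1 and a triangle for replicate 2. Crosses left of 0 stand for no called peak, as in the Active Motif library at 12 members, and Ccnd2 reaches 50.6 in replicate 2.

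Ccnd2 and Ccnd1 stood at opposite ends of the list. Ccnd2 (6:127125162-127152193), the cyclin D2 gene, had a promoter fold of 24.3 with the Active Motif antibody, 37.7 in replicate 1 and 50.6 in replicate 2. Peaks covered 7127, 8452 and 9516 bases within 5 kb of its TSS, and its shared region was 11072 bp long (6:127142064-127153135), running well into the gene. It was the first of all members in acetylated bases in each library. Ccnd1 (7:144929931-144939925), the cyclin D1 gene, had a peak of 80 bp with a fold of 4.61 in replicate 1 and no promoter peak in replicate 2 or in the Active Motif library. It was the only member without a shared region. Replicate 1 also had promoter peaks at more lung epithelial markers (8 of 13) than replicate 2 (2 of 13) or the Active Motif library (0 of 13), and the part of such cells in the Ccnd1 peak was not tested.

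The other genes of the D-type group were all marked in the 3 libraries. Ccnd3 (17:47505051-47599691), for cyclin D3, had folds of 11.6, 28.4 and 23.0, in the order Active Motif, replicate 1 and replicate 2 that is kept below. Peaks at Ccnd3 covered 2631, 6647 and 6396 bases, and 4 separate shared regions lay at its several TSS. Cdk6 (5:3341485-3531008), a kinase partner of the D-type cyclins, had folds of 17.9, 32.3 and 42.3. Cdk4, the other partner, was at 17.7, 27.7 and 25.6. In mean percentile over both replicates Ccnd3 was at 54.4 and Cdk4 at 57.0, in the middle of the range, and the median of the 4 genes of the group with a shared region was 68.6.

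Of the CDK inhibitor genes 2 came directly after Ccnd2 in mean percentile over both replicates, Cdkn1a at 84.4 and Cdkn1b at 81.3, against 89.1 for Ccnd2. Cdkn1a (17:29090976-29100727), which encodes p21, had folds of 17.1, 43.1 and 40.3, the highest member fold of replicate 1. That peak lay inside the gene, its summit 657 to 1530 bp from the nearest TSS over the 3 libraries, while a separate shared region (17:29090406-29092247) covered the annotated 5′ end. Cdkn1b (6:134920401-134925513), for p27, had folds of 14.4, 38.4 and 39.4. Its peaks covered 4466, 5952 and 6187 bases, the most of the 3 inhibitors. Cdkn2c, for the CDK4 and CDK6 inhibitor p18, had folds of 8.10, 16.9 and 26.5 and covered 1140, 2743 and 2919 bases, the fewest of the 3 by the mean of the replicates. The group's median percentile was 81.3.

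RB and E2F genes sat in the middle of the range. Rb1 (14:73183673-73325822), for the retinoblastoma protein, had folds of 11.1, 21.5 and 27.4. The activator genes E2f1 and E2f3 were at 8.50, 19.6 and 25.6 and at 6.82, 17.7 and 22.1. E2f2, another activator, had the lowest promoter folds of the group in the Active Motif library and in replicate 1 but not in replicate 2 (5.54, 13.1 and 26.6), and the most acetylated bases of the group in both replicates by their mean (3195 and 4259, and 687 in the Active Motif library), while E2f3 had the fewest (2881 and 3206). The group's median percentile was 45.4, close to that of all members.

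The 2 cyclin E genes differed. Ccne1 (7:38097984-38107534) had folds of 11.9, 24.6 and 32.8, and Ccne2 (4:11191351-11204779) had no Active Motif promoter peak and folds of 6.15 and 7.99 in the replicates. Peaks at Ccne2 covered 463 and 764 bases in the replicates, the fewest of the group, against 1275 and 1136 bases at Ccne1. Cdk2, the kinase both cyclins activate, was at 8.95, 17.7 and 28.5 with 1222, 1829 and 2253 bases.

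Origin licensing genes were weakly marked as a group, with a median percentile of 25.6, and 4 of the 7 had an Active Motif promoter peak. Mcm7, a subunit of the MCM helicase, stood apart with folds of 10.7, 25.4 and 33.0. Mcm3 (4.69, 9.61 and 18.1), Mcm4 (5.54, 16.1 and 10.6) and Mcm5 (3.93, 15.0 and 8.41) had small Active Motif peaks. At Mcm5 the replicates differed most of all members, by 30.2 percentile points. Cdc6, the loader of the helicase, had folds of 6.15 and 7.07 in the replicates over 195 and 794 bases and no Active Motif peak, the fewest bases of the group. Mcm6 had folds of 6.53 and 6.89 and Mcm2 of 9.99 and 18.1, both without an Active Motif promoter peak. Mcm2 had the most acetylated bases of the group within 5 kb (1661, 2523 and 3697), most of them upstream of the 1 kb promoter window.

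Among fork and nucleotide genes, the strongest was the gene for the sliding clamp of the DNA polymerases. Pcna (2:132249162-132253314) had folds of 16.2, 31.1 and 35.5 over 2324, 2678 and 3069 bases. Rrm1 and Rrm2 encode the subunits of ribonucleotide reductase, which makes deoxyribonucleotides. Rrm1 had folds of 5.12, 23.4 and 25.8. Rrm2 had 9.61 and 10.4 in the replicates and no Active Motif promoter peak, and its strongest peak in replicate 2 had its summit 2261 bp inside the gene. Tyms, for thymidylate synthase, was weakest, with folds of 4.23 and 8.54 over 169 and 801 bases and no Active Motif bases within 5 kb. The subunits of 1 enzyme were thus marked unequally.

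Genes of cyclins A and B and of CDK1 had the lowest median percentile of the 8 groups, 21.8. Ccna2, for cyclin A2, had folds of 8.52, 13.5 and 28.7, and Ccnb2 had 7.99, 11.5 and 15.9. Ccnb1 had no Active Motif promoter peak, folds of 10.4 and 6.33 in the replicates and 703 and 1017 bases, the fewest of the group. Cdk1 (10:69335146-69352938) likewise had none, with folds of 8.46 and 12.0. Its 1355 and 1900 acetylated bases were the most of the group and lay mostly inside the gene (1260 and 1778 bases). So the genes of the mitotic kinase and of its main cyclin both lacked an Active Motif peak, at a fold of at most 12.0 in the Cell Signaling libraries.

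Mitotic genes spanned a wide range. Birc5, for survivin of the chromosomal passenger complex, had folds of 14.1, 26.9 and 39.6, with summits at -467, -1603 and -1862 bp from its TSS, so that the strongest point in the replicates lay upstream of the 1 kb window. Its mean percentile of 73.2 came next after that of Cdk6 at 80.1. Aurka, for Aurora kinase A, had 11.1, 30.0 and 35.1, and Aurkb, for Aurora kinase B, had 7.36, 18.1 and 28.2. Mki67, which encodes the proliferation marker Ki-67, had 7.52, 20.0 and 30.0 and the most bases of the group by the mean of the replicates (1792, 4096 and 5298 in the 3 libraries), mostly inside the gene. Aurkb covered 1848, 3137 and 5323 bases, more than Mki67 in the Active Motif library and in replicate 2.

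At the low end of the same group were Plk1, Cdc20 and Bub1, while Top2a stood higher in both replicates. Plk1 (7:122159439-122169873), for Polo-like kinase 1, had folds of 5.38 and 5.67 over 439 and 510 bases in the replicates and no Active Motif peak. Cdc20, an activator of the anaphase-promoting complex, had 5.38 and 8.36 and no Active Motif peak. Bub1, a spindle checkpoint kinase gene, was at 5.12, 3.84 and 9.28, so that it was called in the Active Motif library although weak in the others. Top2a, for topoisomerase II alpha, had folds of 13.8 and 16.8 and no Active Motif peak.

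The members without an Active Motif promoter peak were mostly weak in the Cell Signaling libraries as well. Besides Ccnd1, 11 members had a shared region and no Active Motif promoter peak: Ccne2, Cdc6, Mcm2, Mcm6, Rrm2, Tyms, Ccnb1, Cdk1, Plk1, Cdc20 and Top2a. Over these 11 the median fold was 6.53 (replicate 1) and 8.36 (replicate 2), against 20.8 and 27.8 for the 26 members with an Active Motif peak. Their median percentile was 9.18, against 11.4 for the 1219 protein-coding genes of the same kind. Of members with a shared region 26 of 37 had an Active Motif peak, against 87.9% of all genes with one. The 2 sets of members overlapped in strength, since Top2a (mean percentile 30.2) and Mcm2 (26.2) lacked an Active Motif peak, while Mcm5 (23.3) and Mcm3 (25.6) had one. The share over all genes ran with strength: it was 37.9% below the 20th percentile of the replicates' mean and 91.4% between 20 and 40. Of 10 members below 20, 1 had an Active Motif peak (Bub1), and of 6 between 20 and 40, 4 did. Members below 20 had a median percentile of 8.75, against 12.1 for all genes there. From 40 upward all 21 members had one, as did 99.1% or more of all genes in each step. Where a peak is absent, none passed the authors' threshold in that library, whose depth was not used here.

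**Figure D3:**
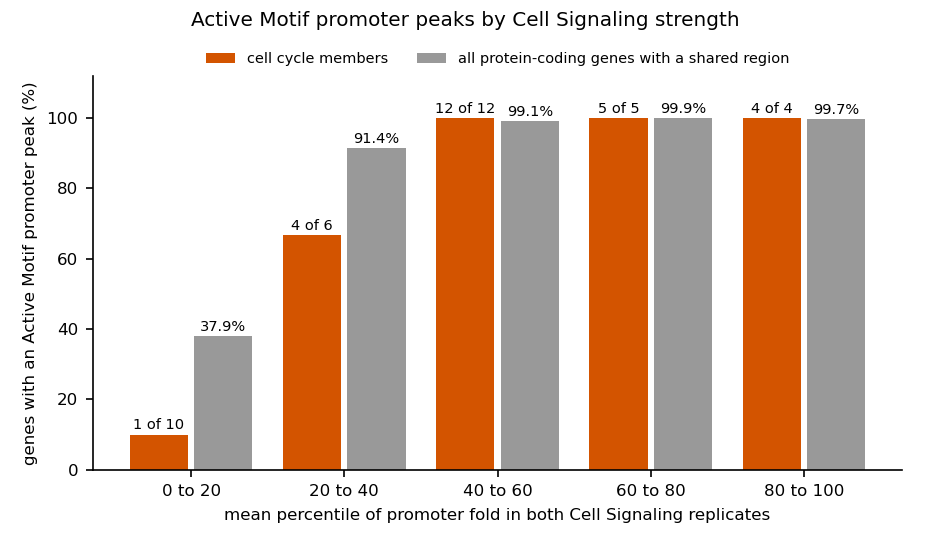
Share of genes (%) with an Active Motif promoter peak in steps of 20 of the mean percentile of promoter fold in the Cell Signaling replicates, for members (left bars, with counts) and all protein-coding genes with a shared region (right bars). In the weakest step 1 of 10 members had such a peak, against 37.9% of all genes.

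Placed in order of the cycle, the members that govern the decision to divide carried more of the mark than those that carry out DNA synthesis and mitosis. For this the first 4 role groups (15 G1 control genes) and the last 4 (23 S and M phase genes) were pooled after the values of the 8 groups were seen, and no test was made. G1 control genes had an Active Motif promoter peak in 13 of 15 cases and S and M phase genes in 13 of 23. Their median percentile was 53.8 for G1 control and 26.1 for S and M phase genes. By role group, in the order listed above, it was 68.6, 81.3, 45.4 and 49.9 within G1 control. Within S and M phase it was 25.6, 35.5, 21.8 and 40.1. The RB and E2F, cyclin E and mitotic groups thus lay close together, and the outer groups lay far apart. The medians of acetylated bases were 1222, 3013 and 3224 for G1 control genes and 278, 1223 and 1459 for S and M phase genes. Both sets overlapped, since Pcna, Mcm7, Aurka and Birc5 were above 60 in percentile and Ccne2 was at 9.18. The pathway lists outside the members, described below, did not follow this order. Their median percentile was 48.1 for other mitosis genes and 39.2 for other replication factors. It was 39.7 for other RB, E2F and DREAM genes and 26.4 for other CDK inhibitor, CDK and checkpoint genes. The median number of CpG dinucleotides was alike, at 25.0 in 11 G1 control windows and 24.0 in 20 S and M phase windows. G1 control genes without a sequence were Ccnd1, Ccnd2, Ccne2 and Rb1. Among these were the members with the most (Ccnd2) and the fewest (Ccnd1) acetylated bases in both replicates.

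The difference in length was larger inside the genes than upstream of them. In the window of 5 kb either side of the 5′ end, G1 control genes had a median of 1019 acetylated bases upstream and 1941 downstream in replicate 1, and 1054 and 2094 in replicate 2. S and M phase genes had 527 upstream and 603 downstream in replicate 1, and 741 and 749 in replicate 2. Among genes with a shared promoter region the medians were 641 and 938 in replicate 1 and 752 and 1080 in replicate 2. At 2 kb inside the gene, 46.7% of the G1 control genes and 8.70% of the S and M phase genes were under a peak of replicate 1, against 16.2% of all genes with a shared promoter region. In replicate 2 the shares at that point were 60.0% and 8.70%, against 21.1%. At the 5′ end itself 100% of S and M phase genes were under a peak of replicate 2, 78.3% under one of replicate 1 and 17.4% under one of the Active Motif library. The G1 control genes stood at 86.7%, 93.3% and 33.3% in the same order. In the Active Motif library all genes with a shared promoter region stood at 55.3% there.

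**Figure D4:**
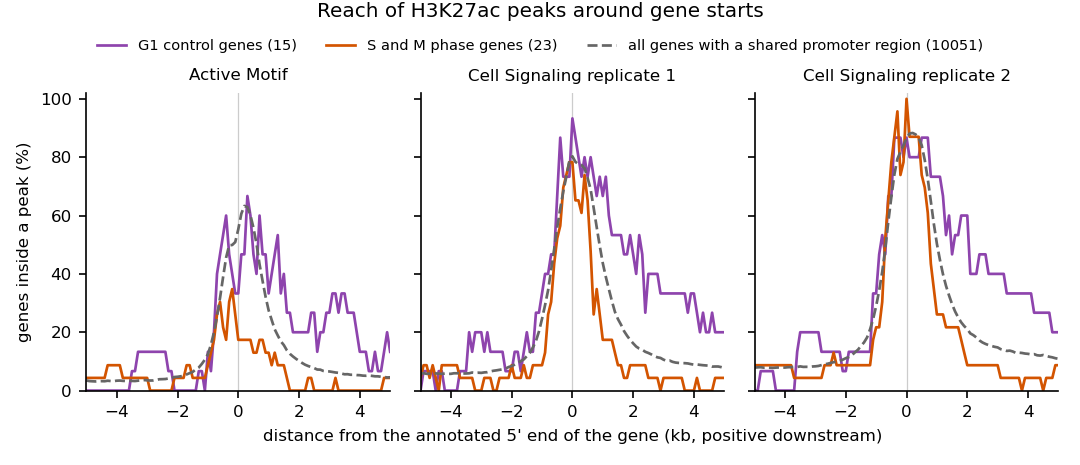
Share of genes (%) under a peak at each distance from the annotated 5′ end (kb, positive downstream), for 15 G1 control genes, 23 S and M phase genes and all 10051 genes with a shared promoter region, with 1 panel per library. At 2 kb inside the gene in replicate 2 the G1 control genes stood at 60.0%, the S and M phase genes at 8.70% and all genes with a shared region at 21.1%.

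Distal acetylation, read as putative enhancers, was concentrated at 1 member. A shared region was distal when its midpoint lay more than 3 kb from every TSS, and it was given to the nearest protein-coding TSS. The members had 49 distal regions, held by 13 of 38 genes (34.2%, against 26.3% of all protein-coding genes), with a mean of 1.29 per gene against 0.816. Among genes with a shared promoter region the order was reversed. Of such members 35.1% held a distal region, against 40.9% of all such genes, with means of 1.32 and 1.43. Cdk6 alone had 22. Without it the other 37 members had 27 regions and a mean of 0.730, below the mean of all genes. Counted as single peaks and not as merged regions, replicate 2 alone gave 74 distal sites at the members and replicate 1 alone gave 80. Of the 49 regions, 39 belonged to G1 control genes (9 of 15 with at least 1) and 10 to S and M phase genes (4 of 23). Cdk6 held 22 of the 39. The stretch of sequence nearest to a gene also differed, with a median of 61.3 kb for G1 control and 30.6 kb for S and M phase genes. Cdk6, whose stretch was open on 1 side, was left out of that median. The part of this length in the counts was not tested.

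The distal regions of Cdk6 reached 95.1 kb into the gene and 148 kb upstream, with none between 43.2 and 74.7 kb inside it. Of its 22 distal regions 19 lay inside the gene and 3 upstream in intergenic sequence, and 8 held an Active Motif peak. The strongest (5:3419719-3422394, 76.7 kb inside the gene) had folds of 15.4, 60.0 and 44.7. In both replicates this was above the fold at the promoter, 32.3 and 42.3. A neighbour (5:3432688-3435747) had 12.4, 38.4 and 37.0. The other regions were weaker, with folds of at most 16.9 in replicate 1.

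The 6 distal regions of Ccnd2 all lay upstream, from 3.55 to 115 kb, and 3 of them held an Active Motif peak. The one nearest to the gene (6:127153417-127155807) was the strongest in both replicates, with folds of 7.25, 13.8 and 22.5, while in the Active Motif library the region 85.7 kb away had a higher fold (7.67). Aurkb had 4 regions within 11.8 kb, all with an Active Motif peak, and 1 of them was inside the neighbouring gene Ctc1. Their folds were 3.68 to 10.1 for Active Motif, 8.07 to 12.7 in replicate 1 and 14.4 to 24.0 in replicate 2. Regions were assigned by distance alone, and whether they act on these genes was not measured.

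Mki67 had 4 distal regions, 3 of them inside the gene within 10.4 kb of its TSS and 2 with an Active Motif peak. Ccnd3 had 3, all inside the gene, of which the one at 5.82 kb was strongest (5.26, 14.6 and 13.9). E2f2 had 2, both inside the gene. The stronger (4:136176943-136180612) had folds of 17.2, 33.4 and 37.7, above those at its promoter in every library (5.54, 13.1 and 26.6). It ended 170 bp before a second RefSeq start of E2f2, which the GENCODE set used here did not hold as a coding TSS. Cdkn1b had 2 distal regions, and Cdc6, Ccne1, E2f1, Cdkn1a, Rb1 and Rrm1 had 1 each. None of the cyclin A, cyclin B and Cdk1 genes had any.

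**Figure D5:**
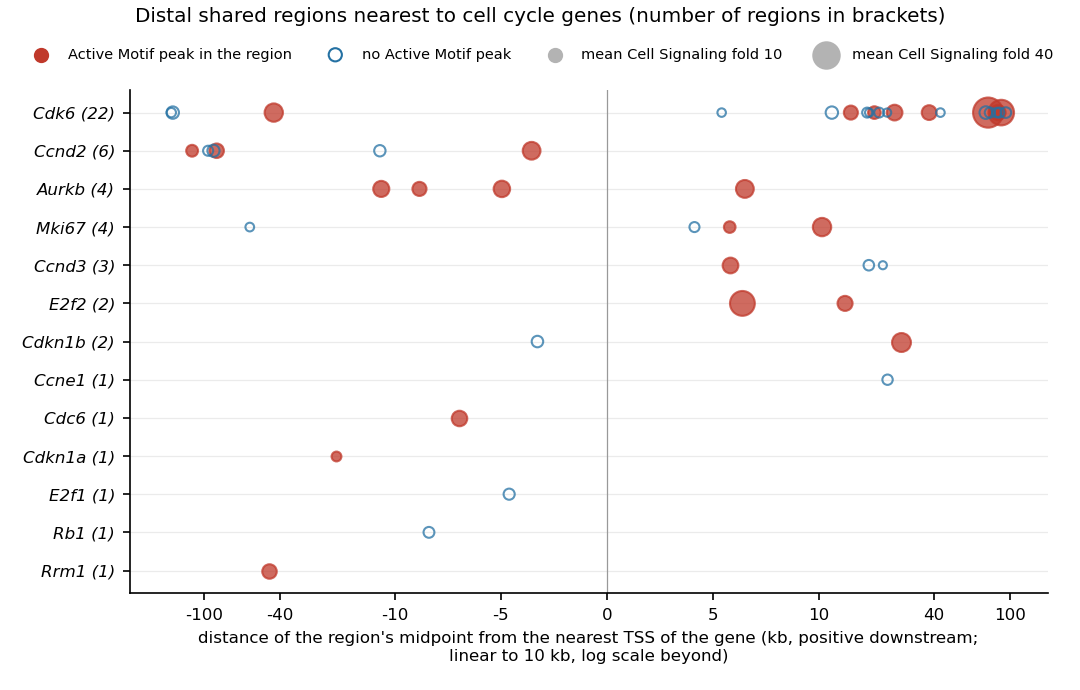
Distal shared regions of the 13 members that had one, placed by distance from the nearest TSS of the gene (kb, positive downstream, linear to 10 kb and log scale beyond), with area in proportion to the mean fold of both replicates and filled where the region held an Active Motif peak. Of the 49 regions 22 lie at Cdk6, and the largest circle is its region 76.7 kb inside the gene.

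Some members share a promoter with another gene, where a peak cannot be given to either. A coding TSS of another gene lay within 1 kb at Mcm4 (Prkdc), Aurka (Cstf1) and Mcm7 (Ap4m1), 3 of 38 members (7.89%) against 12.0% of all genes, and a long non-coding RNA started there at Pcna and Plk1. All 3 members with a coding neighbour had an Active Motif peak. Of the 33 members with neither kind of neighbour 22 had one. Over all protein-coding genes the share with such a peak was 40.9%, and shares by kind of neighbour were not taken. No comparison is drawn from 3 genes.

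The replicates ranked the members alike. Spearman's rho between replicates was 0.87 for the percentile of promoter fold (37 members) and 0.96 for acetylated bases (38 members), given as a description, since the points share their libraries. Replicate 2 covered more bases than replicate 1 at 33 of 38 members, and the Active Motif library covered the fewest at 37 of 38. The libraries ran in the same order over all genes with a shared region. Their medians were 1143 bases for Active Motif, 1789 in replicate 1 and 2089 in replicate 2. The median difference between replicates was 5.76 percentile points.

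Other genes of the same pathways, 98 in 4 lists outside the members, were marked about as often. A shared promoter region was found at 89 of the 98 (90.8%), an Active Motif peak at 74, and their median percentile was 39.9. Of 32 other replication factors 30 had a shared region, among them the origin recognition genes Orc1 (folds of 17.0, 33.8 and 42.1), Orc2 (5.38 and 6.71 in the replicates, no Active Motif peak) and Orc3 (9.38, 20.4 and 25.6). The exceptions were Gins3 and Prim1, with a peak in replicate 2 alone. Of 30 other mitosis genes 28 had one, such as the checkpoint genes Ttk (10.7, 17.7 and 37.2), Mad2l1 (5.12, 18.1 and 27.8) and Bub1b (8.10, 12.7 and 47.6). Cenpf and Nek2 did not, although each replicate had a peak at both, which did not overlap each other.

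Of 18 other genes of the RB, E2F and DREAM system 14 had a shared region. E2f4, a repressor E2F, was marked in all libraries (5.57, 13.8 and 18.4), and E2f5 in the replicates alone (3.84 and 7.44). E2f6, E2f7, Tfdp2 and Mybl2 lacked one, and Mybl2, which encodes the mitotic activator B-MYB, had no promoter peak in any library. Of 18 other CDK inhibitor, CDK and checkpoint genes 17 had one. Cdkn2b (4.27, 8.84 and 16.4) and Cdkn2a (3.84 and 9.83 in the replicates, no Active Motif peak) were among them, and Cdkn1c, for p57, had no promoter peak in any library.

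The identity of the cells was checked on marker genes. All 15 AM markers, such as Siglecf, Marco and Chil3, had a shared promoter region, and 14 of them an Active Motif peak. Their median percentile of 76.1 stood above that of the cell cycle members. Of markers of other cells, 2 of 13 for lung epithelium, 0 of 10 for T and NK cells, 1 of 8 for B cells, 2 of 10 for neutrophils, 4 of 8 for monocytes, 1 of 8 for erythroid and progenitor cells and 2 of 10 for endothelium and fibroblasts had a shared region. The part of such cells in the member peaks was not tested. The share of all protein-coding genes with a shared region was 46.4%. Among the lists of other cells only the monocyte list was not below it. Its 4 marked genes were Ccr2, Fn1, Nr4a1 and Itgam, and the paper counts Ccr2 among monocyte genes. The 2 epithelial markers with a shared region were Epcam and Cdh1, and the paper counts Cdh1 among the AM-core genes. The Active Motif library held 36364 peaks over 26.1 Mb, replicate 1 56175 over 45.8 Mb and replicate 2 49139 over 59.8 Mb, and 29277 shared regions covered 56.8 Mb.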

How the data were processed

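H3K27ac was measured by HT-ChIPmentation in sorted AMs of WT mice. The study's methods name Cutadapt, Bowtie2 (mm10), Picard, samtools and MACS3 with input controls at a q-value of 0.05, and more than 1 sonicator for H3K27ac. For both Cell Signaling libraries bcl2fastq 2.20.0.422 is given in the submitters' processing notes. The authors deposited 1 peak list per library, with a position, a score, the fold enrichment as a ratio, the −log10 p-value, the −log10 q-value and the summit offset of each peak. The score and the −log10 p-value that the authors deposited were not used. The lists hold no read counts, so the precision that depth gives is unknown.

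Peaks were set against the GENCODE vM21 basic annotation (41157 protein-coding TSS positions, 52482 with long non-coding RNAs) on the same assembly, with coordinates counted from 1 and an overlap of at least 1 bp. A promoter was 1 kb either side of any TSS of a gene, and acetylated bases were those under peaks within 5 kb of the TSS that had the most. A distal region had its midpoint more than 3 kb from every TSS. CpG-rich meant an observed over expected ratio of at least 0.6 and at least 50% GC. Peak handling was tested on simulated peaks. Python 3.11.15, numpy 2.4.6, pandas 2.3.3 and scipy 1.17.1 were used. All 218 listed symbols matched the annotation.

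The members and the gene lists were chosen with earlier results of these data known. Values in every library are given for members without a shared region or without an Active Motif promoter peak, for the 5 highest in mean percentile, for those with 3 or more distal regions and for the highest and lowest of each role group in acetylated bases. Pathway lists are given by their first 3 genes and, where 5 or fewer went against the majority, those genes. Others are named beside their values. Alternatives were other promoter windows, distal limits, q-values, peak numbers, overlap rules and libraries left out. Inputs were used only through the peak calling.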

Additional observations from a re-analysis of the deposited data

How the results depend on the processing

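Counts of marked promoters moved little. Members with a shared promoter region numbered 35 to 38 under every alternative except an overlap of 50% of both peaks, which left 26. Members with an Active Motif peak numbered 22 to 26, and at a q-value of 1e-05 or lower Bub1, Mcm3, Mcm5 and Rrm1 lost theirs. Pathway genes with a shared region numbered 83 to 95 of 98. Distal regions moved more: 49 became 27 without Cdk6, while the distal limit, the q-value and assignment to the nearest gene body gave 34 to 62. With a replicate left out, the other gave 74 or 80 distal sites. These were single peaks and not merged regions, so they are not in the unit of the 49. The median of acetylated bases within 5 kb, 1852 over both replicates, ran from 1604 to 1939 with a replicate left out and was 711 in the Active Motif library. As a share of the window it was 18.5% within 5 kb and 43.9% within 2 kb, since peaks centre on the TSS. The median percentile of promoter fold, 44.2, was 36.0 in the Active Motif library, 42.7 to 46.7 with a replicate left out and 43.2 by q-value. No paired analysis was possible because the results come from peak lists with no fitted test, and the replicate numbers shared with inputs pair no H3K27ac groups. Depth limits what an absent peak can say, and with 1 Active Motif library the antibody and the library cannot be told apart.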

Other observations

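Outside the 38 members, 6 of the 98 genes of the pathway lists had 4 or more distal shared regions, named after their values were seen. The share of all genes with so many was not taken. Of the 98 genes 33.7% had 1 or more, against 26.3% of all protein-coding genes and 40.9% of those with a shared promoter region. Myc, for the transcription factor that drives growth and division, had 34, more than any cell cycle member, and promoter folds of 11.5 for Active Motif, 26.5 in replicate 1 and 33.9 in replicate 2. Btg1, an antiproliferative gene of the BTG and TOB family, had 25 distal regions and promoter folds of 17.9, 36.5 and 40.5 in the same order, with 6322, 6719 and 7277 acetylated bases within 5 kb. Mdm2, for the ubiquitin ligase that degrades p53, had 5 distal regions and folds of 13.0, 50.4 and 41.6. Cdkn2b, for the CDK4 and CDK6 inhibitor p15, had 5 distal regions beside a weaker promoter (4.27, 8.84 and 16.4). Incenp, the scaffold of the chromosomal passenger complex that holds Aurora kinase B and survivin, had 4 distal regions and folds of 12.1, 33.1 and 38.8, and Prim2, for a primase subunit, had 4 and folds of 6.67, 11.1 and 22.3.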
